A study of Mus musculus with 10 samples.

Results

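A set of 10 protein-coding genes of the mouse mitochondrial genome were followed library by library: mt-Nd1, mt-Nd2, mt-Nd3, mt-Nd4l, mt-Nd4, mt-Nd5 and mt-Nd6 of complex I, mt-Cytb of complex III, mt-Co1 of complex IV and mt-Atp6 of complex V. These 10 genes were chosen by name, with their values in these libraries known, and all 10 were among the 11702 genes of the deposited gene table. The mitochondrial genome has 13 protein-coding genes. The remaining 3, mt-Co2, mt-Co3 and mt-Atp8, and the 2 ribosomal RNA genes, mt-Rnr1 and mt-Rnr2, were also in the table and are given where they bear on a result. Because the genes were chosen from these values, their differences between groups are given as a description and carry no p-value.

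RNA came from retinas of 10 female mice collected at P36, after intravitreal injections at P10 and P24. The rd10 strain, B6.CXB1-Pde6brd10/J, carries a mutation in Pde6b, which encodes a subunit of the rod phosphodiesterase, and its rods degenerate. The WT DMSO group had 4 mice (W1 to W4), the rd10 DMSO group 3 (D1 to D3) and the rd10 HAL group, given 1 μL of 20 μM halofantrine, 3 (H1 to H3). Every mouse, controls included, was injected with halofantrine or with DMSO, and the strain of the WT mice was not given in the sources used here. The labels name 2 batches without saying what they mark. Batch 1 held W1 to W4, D1, D2 and H1, and batch 2 held D3, H2 and H3, so every WT library was of batch 1. The library titles carry further set names, also unexplained: W1 to W3 share one, W4 has its own, D1, D2 and H1 share another, H2 and H3 share another, and D3 has its own. Within batch 1 genotype and set name cannot be told apart, nor can the position of W4 or D3 and its set name. The comparisons ask whether the genes differed with halofantrine in rd10 retina, with the rd10 genotype and with batch.

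Mitochondria carry their own small circular DNA, copied and transcribed apart from the nuclear genome. Each strand is read as a long precursor, which is cut at the transfer RNAs that punctuate it, and most of the messenger RNAs are then given a short poly(A) tail. The proteins they encode sit in the inner membrane, where they carry electrons and move protons together with subunits made from nuclear genes. Photoreceptors pack mitochondria into their inner segments and are among the cells with the highest demand for oxygen. In the GENCODE M21 annotation, 9 of the 10 genes lie on the transcript of the heavy strand, which begins with the 2 ribosomal RNAs, and mt-Nd6 alone is read from the light strand. The deposited values rest on another build, so gene order and length are given here without coordinates.

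The ends of mt-Nd3 are shown beside those of Gm28438, a gene of the nuclear genome that copies it, because a result turns on the pair (GENCODE M21 transcripts, 5′ to 3′). mt-Nd3 has 348 bases and the copy 345, and they share 1 unbroken stretch of 342 bases, from base 4 to base 345 of each. Lower case marks the shared stretch and capitals the bases outside it, in the first and the last 60 bases of each transcript.
mt-Nd3, first 60 bases: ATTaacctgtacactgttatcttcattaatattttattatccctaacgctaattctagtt
Gm28438, first 60 bases: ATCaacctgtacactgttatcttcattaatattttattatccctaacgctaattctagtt
mt-Nd3, last 60 bases: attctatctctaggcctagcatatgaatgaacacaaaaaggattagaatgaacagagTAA
Gm28438, last 60 bases: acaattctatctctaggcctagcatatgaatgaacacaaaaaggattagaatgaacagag
The last 150 of the 519 bases of mt-Nd6 are shown because its level set it apart from the other genes. Capitals mark the 14 bases that overlap the annotated mt-Nd5, which lies on the opposite strand. As each strand is read as a long precursor, RNA of the opposite strand can cover the rest of mt-Nd6 too. Reads of mt-Nd6 are thus told apart from such RNA only by strand. The strand setting of the counting was not given in the sources used here. As a light-strand product mt-Nd6 held 43.7% T, 28.1% G and 5.97% C, whereas mt-Nd3 held 32.8% T, 10.9% G and 22.1% C.
mt-Nd6: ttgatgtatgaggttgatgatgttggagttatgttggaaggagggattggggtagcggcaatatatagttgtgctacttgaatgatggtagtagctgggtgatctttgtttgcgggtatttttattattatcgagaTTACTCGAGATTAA
Ends of 4 further genes are shown because their coding sequences end in different ways. Capitals mark the stop codon or, in mt-Nd4 and mt-Cytb, the single T that the poly(A) tail completes to a stop.
mt-Co1: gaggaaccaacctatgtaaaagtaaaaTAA
mt-Nd4l: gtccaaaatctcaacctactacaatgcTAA
mt-Nd4: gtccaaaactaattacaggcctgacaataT
mt-Cytb: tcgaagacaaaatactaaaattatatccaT
The mt-Nd4l and mt-Nd4 coding sequences overlap by 7 bases on the same strand. The stop codon of mt-Nd4l thus lies inside mt-Nd4 and is not shown as the end of an RNA.

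Several points about the libraries bear on the values. Total gene counts ranged from 15512212 in D3 to 38160436 in D2. Summed rod markers (9 genes, among them Gnat1 and Pde6b) were 37432 to 39505 counts per 1000000 counts (CPM) in W1 to W3, 2481 to 2694 CPM in the rd10 libraries of batch 1 and 4639 to 6317 CPM in those of batch 2. The library labelled WT DMSO W4 had 1915 CPM, below every rd10 library, so it goes against its label, and most comparisons with WT are given with and without it. Summed Muller glia markers (4 of 4 in the table) were 2852 to 3054 CPM in W1 to W3 and 4045 to 4847 CPM in the other libraries. The same libraries were split by the sums of markers in the table for gliosis (4 of 4, 41.4 to 50.4 against 528 to 694 CPM), microglia (3 of 5, 15.9 to 22.99 against 71.04 to 92.1 CPM), bipolar cells (5 of 5, 1202 to 1289 against 2021 to 2436 CPM) and amacrine and ganglion cells (5 of 5, 734 to 759 against 1062 to 1225 CPM). Taken singly, the bipolar marker Prkca overlapped (387 to 431 against 411 to 478 CPM), as did the Muller glia marker Rlbp1 (338 to 415 against 386 to 556 CPM). Summed blood markers (3 of 5 in the table) reached 79.6 and 96.5 CPM in H3 and H2 against 11.8 to 60.3 CPM elsewhere. The part of these differences in the results was not tested, and in whole retina fewer cells of a type and less RNA per cell cannot be told apart.

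The 10 genes together kept a similar level in all libraries. Their summed level, in CPM scaled by TMM, was 31514, 29874, 32389 and 29627 in W1 to W4, 30575, 28696 and 30877 in D1 to D3, and 29824, 29246 and 28976 in H1 to H3. The group means were 30851 ± 1324 (SD, n = 4) in WT DMSO, 30049 ± 1182 (SD, n = 3) in rd10 DMSO and 29349 ± 433 (SD, n = 3) in rd10 HAL, and the ranges of the 3 groups overlapped. Without W4 the WT mean was 31259 ± 1277 (SD, n = 3). The range of W1 to W3 then still overlapped that of rd10 DMSO, but it lay just above that of rd10 HAL (29874 to 32389 against 28976 to 29824). On the log2 scale rd10 HAL differed from rd10 DMSO by −0.03, and the batches of rd10 differed by 0.01, both within the replicate SD of 0.05. With W4 kept, rd10 DMSO differed from WT DMSO by −0.04 with TMM and by 0.12 when counts were scaled by library size alone, so the sign of that difference depends on the scaling. As a share of all gene counts the 10 genes made up 2.72% to 2.88% in W1 to W3 and 2.997% to 3.24% in W4 and the rd10 libraries.

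**Figure D1:**
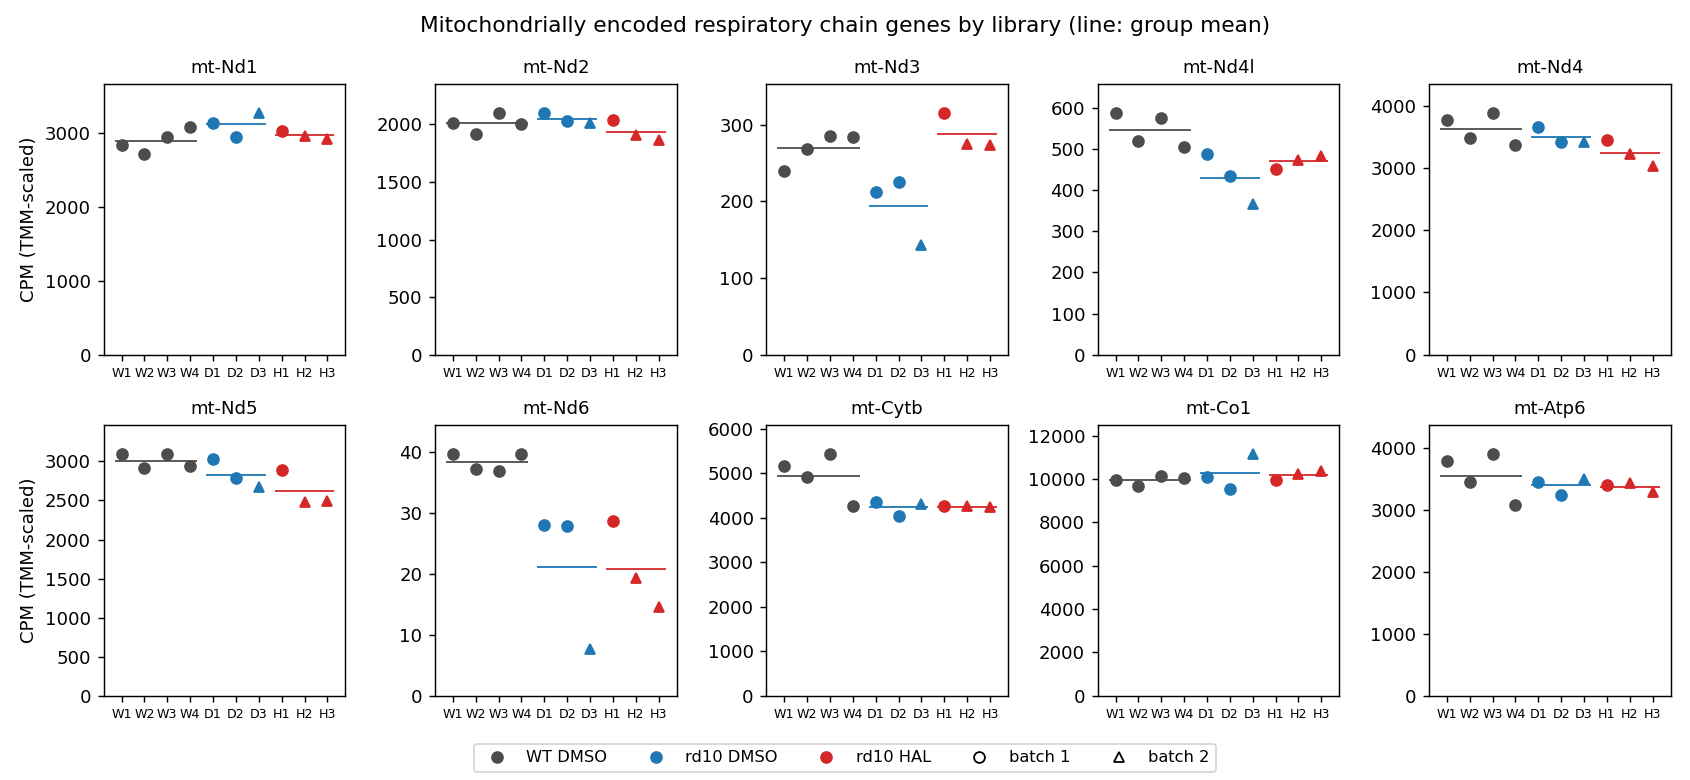
TMM-scaled CPM of each of the 10 genes in the 10 libraries, with group means as lines, groups by colour and batches by marker shape. The rd10 HAL libraries lie above all rd10 DMSO libraries for mt-Nd3, and mt-Nd6 spans 36.8 to 39.7 CPM in WT DMSO and 7.63 to 28.7 CPM in rd10.

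The genes differed widely in level. Levels are compared per kilobase of transcript, with reads assigned to near-identical nuclear copies added back (see the mt-Nd3 account), as means of the 10 libraries. mt-Co1, the catalytic subunit of cytochrome c oxidase, was highest at 7033 CPM per kb, and mt-Atp6, which forms part of the proton channel of ATP synthase, followed at 5167. mt-Cytb, the b-type cytochrome of complex III, had 3956 CPM per kb. Among complex I genes the order was mt-Nd1 (3117), mt-Nd4 (2522), mt-Nd2 (1925), mt-Nd4l (1648), mt-Nd5 (1557) and mt-Nd3 (1179), and mt-Nd6 stood last at 53.8 CPM per kb. Neighbours in this order had overlapping ranges over the 10 libraries for mt-Atp6 and mt-Cytb, mt-Nd2 and mt-Nd4l, mt-Nd4l and mt-Nd5, and mt-Nd5 and mt-Nd3. The other 5 neighbouring pairs did not overlap. Among the 10, all complex I genes lay below the genes of the other complexes in their means over libraries. Outside the 10, mt-Atp8 of complex V had 2215 CPM per kb, below mt-Nd1 and mt-Nd4. All these levels come from poly(A) libraries and are not those of total RNA, and the part of poly(A) selection in them was not tested.

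Halofantrine was compared with DMSO in rd10 retina. mt-Nd3 encodes a small membrane subunit of complex I that lies near the quinone-binding region. As deposited, mt-Nd3 had 213, 225 and 144 CPM in D1 to D3 and 316, 274 and 274 CPM in H1 to H3, against 240, 268, 286 and 284 CPM in W1 to W4. All HAL libraries were above all DMSO libraries, and the log2 fold change was 0.57 (SE 0.16). It was 0.53 within batch 1 and 0.93 within batch 2. mt-Nd3 was the only one of the 10 genes whose rd10 HAL and rd10 DMSO values did not overlap, where 13.1% of all genes tested did not.

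The nuclear copy Gm28438, counted as a gene of its own, moved the opposite way. It had 214, 174 and 159 CPM in D1 to D3 and 13.5, 102 and 103 CPM in H1 to H3. Of the 318 words of 31 bases in mt-Nd3, 312 were also in Gm28438 (98.1%). When the counts of both were added, the level was 427, 399 and 303 CPM in D1 to D3 and 329, 376 and 377 CPM in H1 to H3. The groups then overlapped, and the log2 fold change was −0.06 (SE 0.13), or −0.01 with batch as a term. Within batch 1 the pooled difference was −0.33 and within batch 2 it was 0.31. A read that lies within the shared words fits both genes, so the value of mt-Nd3 alone depends on how such reads were divided. Nuclear copies bore less on the other genes. mt-Atp6 shared 99.5% of its 31-base words with nuclear transcripts, but its copy Gm10925 held 0.185 to 138 CPM where mt-Atp6 held 3080 to 3912 CPM. mt-Co1 shared 63.9%, and its copy Gm29216 held 606 to 825 CPM beside 9532 to 11152 CPM.

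**Figure D2:**
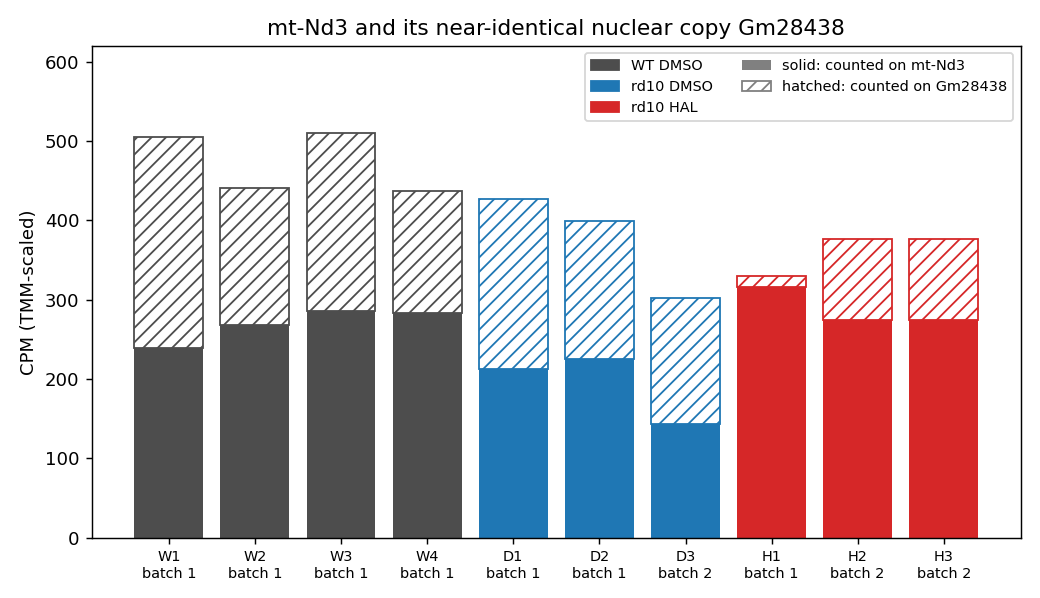
CPM counted on mt-Nd3 (solid) and on its nuclear copy Gm28438 (hatched) in each library, stacked, with colour for group. The solid bars of H1 to H3 (274 to 316 CPM) stand above those of D1 to D3 (144 to 225 CPM), while the stacks overlap, at 329 to 377 CPM and 303 to 427 CPM.

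The other 9 genes overlapped between rd10 HAL and rd10 DMSO. mt-Nd4l, the smallest complex I subunit of the set, had 489, 436 and 368 CPM in D1 to D3 and 453, 474 and 485 CPM in H1 to H3 (log2 fold change 0.12, SE 0.10). Of the large subunits that pump protons, mt-Nd2 had 2100, 2030 and 2009 CPM in D1 to D3 and 2039, 1911 and 1865 CPM in H1 to H3 (−0.08, SE 0.06). mt-Nd4 had 3659, 3413 and 3420 CPM against 3452, 3228 and 3040 CPM (−0.11, SE 0.07). For both, the lowest values were those of H2 and H3. mt-Nd5 is given with the batches, and its log2 fold change was −0.11 (SE 0.08). mt-Nd1 had 3142, 2948 and 3275 CPM in D1 to D3 and 3025, 2956 and 2920 CPM in H1 to H3 (−0.07, SE 0.06), with the highest value in D3. mt-Co1 had 10093, 9532 and 11152 CPM against 9947, 10213 and 10342 CPM (−0.01, SE 0.07), and its rd10 HAL values lay inside the range of rd10 DMSO. mt-Cytb was the most even, with 4356, 4045 and 4311 CPM in D1 to D3 and 4260, 4257 and 4238 CPM in H1 to H3 (0.00, SE 0.05). mt-Atp6 had 3465, 3251 and 3512 CPM against 3413, 3436 and 3300 CPM (−0.01, SE 0.06). Across all genes, edgeR's quasi-likelihood test with Benjamini-Hochberg adjustment called 0 of 11692 genes at an adjusted p under 0.05 (0% called), and DESeq2 called 3. At an unadjusted p under 0.05 by edgeR there were 557 genes, or 4.76%. With batch as a term edgeR called 0 of 11698 genes, and 1943, or 16.6%, had an unadjusted p under 0.05.

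Shares of mt-Cytb, mt-Nd1 and mt-Co1 among the 10 genes set W1 to W3 apart from W4 and the rd10 libraries. Such shares do not depend on how libraries are scaled. With copies pooled, mt-Cytb made up 15.8%, 15.9% and 16.2% of the summed level in W1 to W3. It made up 13.9% in W4, 13.8%, 13.7% and 13.6% in D1 to D3, and 13.9%, 14.1% and 14.2% in H1 to H3. mt-Nd1, whose product lines the quinone-binding site, moved the other way, from 8.67%, 8.79% and 8.78% in W1 to W3 to 9.93%, 9.96% and 10.4% in D1 to D3 and 9.87%, 9.81% and 9.76% in H1 to H3, with 10.03% in W4. For both genes W1 to W3 stood apart from all 7 other libraries, the one labelled W4 among them. mt-Co1 was higher in W4 and rd10 too, with 32.5% to 33.8% in W1 to W3 and 34.5% to 37.2% in the 7 others.

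**Figure D3:**
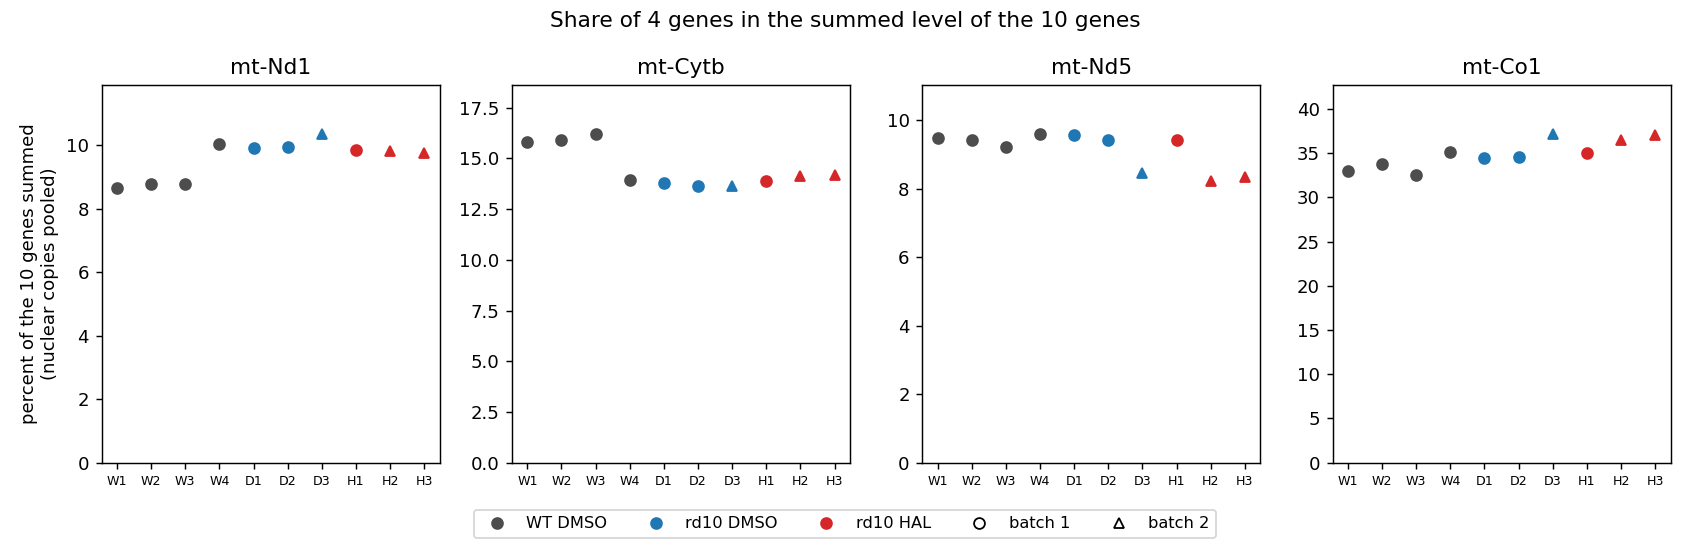
Percent of the summed level of the 10 genes that mt-Nd1, mt-Cytb, mt-Nd5 and mt-Co1 made up in each library, with nuclear copies pooled. For mt-Cytb W1 to W3 lie at 15.8% to 16.2% and all other libraries at 13.6% to 14.2%, and for mt-Nd5 the 3 libraries of batch 2 lie lowest, at 8.23% to 8.46%.

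In TMM-scaled CPM, mt-Cytb was 5168, 4909 and 5434 in W1 to W3, 4275 in W4, and 4045 to 4356 in the 6 rd10 libraries. mt-Nd1 was 2831, 2716 and 2946 in W1 to W3, 3075 in W4, and 2920 to 3275 in rd10. mt-Nd4l was 589, 520 and 575 in W1 to W3, 506 in W4, and 368 to 489 in rd10. The other large genes overlapped between W1 to W4 and rd10: mt-Nd2 was 1913 to 2102 CPM in W1 to W4 and 1865 to 2100 CPM in rd10, mt-Nd4 was 3379 to 3893 and 3040 to 3659 CPM, mt-Nd5 was 2912 to 3095 and 2478 to 3031 CPM, and mt-Atp6 was 3080 to 3912 and 3251 to 3512 CPM. The rd10 DMSO group lay wholly below the 4 WT DMSO libraries for 3 genes, mt-Nd3, mt-Nd4l and mt-Nd6 (10.1% of all genes did not overlap). Against W1 to W3 alone, 5 genes did not overlap, these 3 with mt-Cytb below and mt-Nd1 above, where 69.1% of all genes did not overlap. With its copy pooled mt-Atp6 also lay below, at 3264 to 3512 CPM in rd10 DMSO and 3524 to 4050 CPM in W1 to W3, so the count depends on pooling.

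With W4 in the WT group, 0 of 11698 genes were called between rd10 DMSO and WT DMSO by edgeR (0%), 3108 had an unadjusted p under 0.05, and DESeq2 called 589. Without W4, 7280 genes were called (62.2%), 29.9% lower and 32.3% higher. mt-Nd3 (log2 fold change −0.44, SE 0.16), mt-Nd4l (−0.37, SE 0.11) and mt-Cytb (−0.28, SE 0.09) were the 3 of the 10 genes among the calls, all lower. The count is a description, since the genes were chosen from these values, and nothing is read from it. Pooled with its copy, mt-Nd3 was −0.36 (SE 0.13). With W4 kept, leaving out D3 moved mt-Nd3 as deposited from −0.48 to −0.29 and mt-Nd4l from −0.35 to −0.23. Without W4 and scaled by library size alone, the median of all genes moved from −0.01 to 0.19. In that fit mt-Nd1 was 0.36, mt-Nd2 0.24, mt-Co1 0.27, mt-Cytb −0.07, mt-Nd4l −0.16 and mt-Nd3 −0.23. With W4 kept, library-size scaling gave a median of 0.14 and called 0 genes. Without W4 it called 7440 genes (63.6%), 17.4% lower and 46.2% higher. The called genes of the 10 were then mt-Nd1, mt-Nd2 and mt-Co1, all higher, and mt-Nd3, mt-Nd4l and mt-Cytb were not called, so both the named genes and their direction depend on the scaling.

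The differences between rd10 and WT ran with gene order along the heavy-strand transcript, and W4, labelled WT, differed from W1 to W3 in a similar order. With copies pooled, W4 minus W1 to W3 was 0.12 for mt-Nd1, −0.01 for mt-Nd2 and 0.01 for mt-Co1 on the log2 scale. It was −0.24 for mt-Atp6, −0.14 for mt-Nd4, −0.04 for mt-Nd5 and −0.27 for mt-Cytb. The order was thus not confined to libraries labelled rd10. Of the 7 heavy-strand genes among the 10 with 500 bases or more, a limit chosen after the values were seen, log2 fold changes of rd10 DMSO against WT DMSO ran from 0.11 for mt-Nd1, nearest to the ribosomal genes, through 0.03 for mt-Nd2, 0.05 for mt-Co1, −0.06 for mt-Atp6, −0.05 for mt-Nd4 and −0.09 for mt-Nd5 to −0.22 for mt-Cytb, the last. Spearman's rank correlation with position was −0.93 over these 7 genes, −0.86 without W4 or with copies pooled, and −0.67 over the 9 heavy-strand genes that include the short mt-Nd3 and mt-Nd4l (−0.60 without W4). Over the 12 heavy-strand coding genes in the table it was −0.66, and −0.57 without W4. Over all 14 heavy-strand genes in the table, ribosomal RNAs included, it was −0.78, and −0.73 without W4. For halofantrine against DMSO it was 0.07 over the same 7 genes and 0.46 with batch as a term. For batch 2 against batch 1 in rd10 it was −0.54, and −0.11 without D3. The difference between these correlations was not tested. With transcript length in place of position, over the 9 heavy-strand genes, the rank correlation was 0.42 for rd10 DMSO against WT DMSO (0.52 without W4) and −0.75 for halofantrine against DMSO (−0.58 with copies pooled, −0.57 with batch as a term). Nuclear genes under 500 bases had a median halofantrine difference of 0.10 on the log2 scale, against −0.02 for those over 4000 bases. These are descriptions across genes of the same libraries, and neighbouring genes share a precursor and are not independent.

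At the head of that order, mt-Rnr1, the small ribosomal RNA, was 210, 207 and 206 CPM in W1 to W3, 280 CPM in W4, and 261 to 320 CPM in the 6 rd10 libraries. Without W4 its log2 fold change in rd10 DMSO was 0.47 (SE 0.06, adjusted p = 0.000293, edgeR quasi-likelihood), and with W4 it was 0.34 (adjusted p = 0.187). mt-Rnr2, the large ribosomal RNA, was 885 to 908 CPM in W1 to W3, 1129 CPM in W4, 1076 to 1100 CPM in batch 1 of rd10 and 884 to 942 CPM in batch 2. Its log2 fold change in rd10 DMSO did not pass the test without W4 (0.21, SE 0.09, adjusted p = 0.0753, edgeR) or with it (0.11, adjusted p = 0.548, edgeR), and without W4 by library size it did (0.42, adjusted p = 0.00504, edgeR). The 3 coding genes outside the set did not pass the test with W4 (adjusted p = 0.189 for mt-Atp8, 0.666 for mt-Co3 and 0.911 for mt-Co2, edgeR) or without it. Without W4 their log2 fold changes were −0.02 for mt-Co2 (SE 0.10, adjusted p = 0.903, edgeR), −0.11 for mt-Co3 (SE 0.09, adjusted p = 0.336, edgeR) and −0.45 for mt-Atp8 (SE 0.21, adjusted p = 0.0997, edgeR). Ribosomal RNAs of mitochondria are counted here from poly(A) libraries, so these levels are not those of total RNA.

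**Figure D4:**
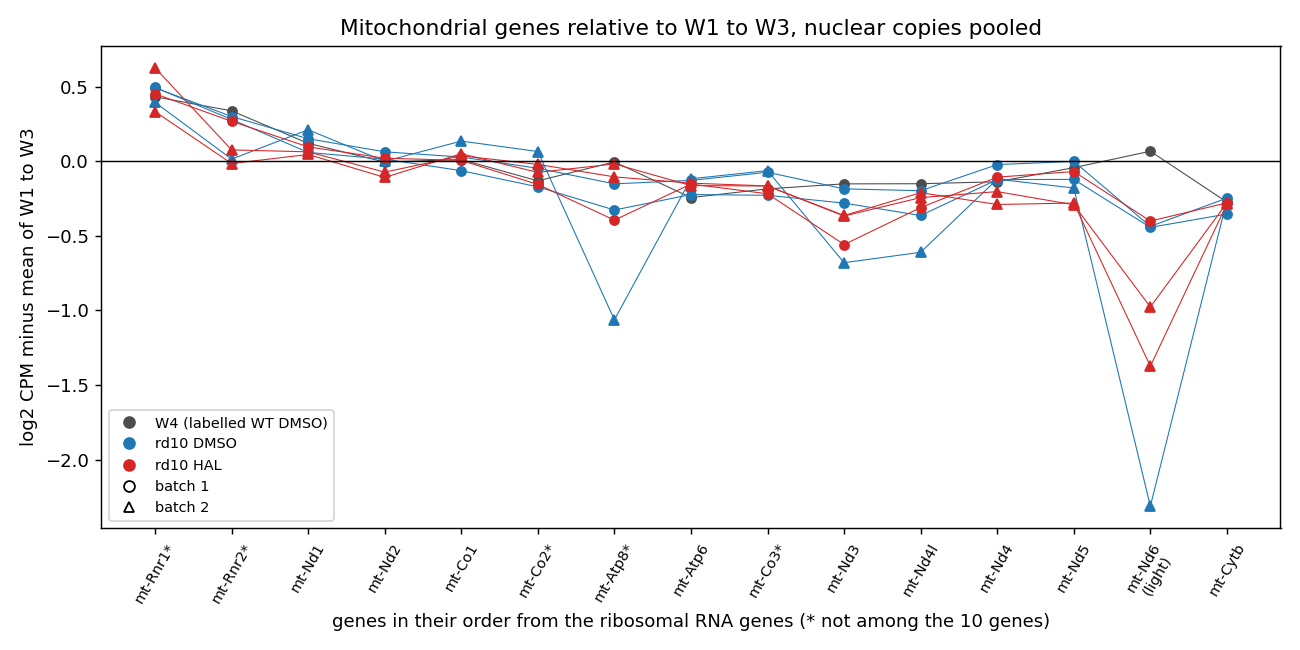
Log2 CPM of each mitochondrial gene minus its mean in W1 to W3, with copies pooled, for W4 and the 6 rd10 libraries, in gene order from the ribosomal RNAs; the axis label marks mt-Nd6 as the light-strand gene and stars the 5 genes outside the set. Values run from 0.33 to 0.63 at mt-Rnr1 to −0.25 to −0.35 at mt-Cytb, and mt-Nd6 reaches −2.31 in D3.

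mt-Nd6, the light-strand gene, encodes a membrane subunit of complex I. It had the widest range of the 10 genes, from 39.7 CPM in W4 to 7.63 CPM in D3, a ratio of 5.20. In WT DMSO it was 39.6, 37.2, 36.8 and 39.7 CPM in W1 to W4. In the rd10 libraries of batch 1 it was 28.0 and 27.8 CPM in D1 and D2 and 28.7 CPM in H1. In batch 2 it was 7.63 CPM in D3 and 19.2 and 14.6 CPM in H2 and H3. The 4 WT DMSO libraries were above the 3 rd10 libraries of batch 1, and these were above the 3 of batch 2. W4 stood with W1 to W3 for this gene, unlike for mt-Cytb, mt-Nd1 and mt-Rnr1. As a share of the summed level it was 0.110% to 0.129% in WT DMSO, 0.0884% to 0.0941% in the rd10 libraries of batch 1 and 0.0241% to 0.0639% in those of batch 2, so the order held without any scaling between libraries. The part of poly(A) selection in the mt-Nd6 values was not tested.

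**Figure D5:**
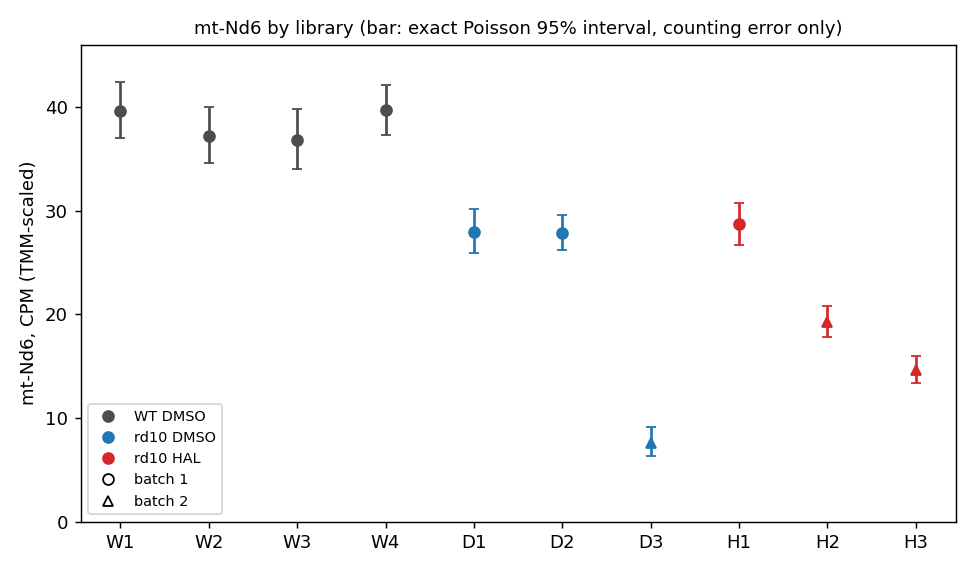
TMM-scaled CPM of mt-Nd6 in each library with exact Poisson 95% intervals from its counts, which cover counting error only. The WT DMSO libraries lie at 36.8 to 39.7 CPM, the rd10 libraries of batch 1 at 27.8 to 28.7 CPM and those of batch 2 at 7.63 to 19.2 CPM.

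The counts behind mt-Nd6 were 631 to 1110 in the 7 libraries of batch 1, 662 and 488 in H2 and H3, and 124 in D3. The exact Poisson 95% interval in D3 was 6.34 to 9.09 CPM, and in H3 it was 13.3 to 15.97 CPM. These intervals cover counting error only and are a description of libraries chosen after their values were seen. Batch 2 minus batch 1 in rd10, with treatment as a term, was −1.25 on the log2 scale (SE 0.24), and −0.76 (SE 0.16) without D3. rd10 DMSO minus WT DMSO was −0.85 (SE 0.40), and −0.45 (SE 0.08) without D3. mt-Nd6 was the only one of the 10 genes among the 542 called of 11698 (4.63%), and it was lower in batch 2, as were 1.55% of all genes, with 3.09% higher. It was not among the calls without D1, D2, D3 or H3, or without the treatment term, and without D3 the calls over all genes were 91. As for the genotype, nothing is read from a call on a gene chosen from its values. Halofantrine against DMSO was −0.05 (SE 0.46) without the batch term and 0.52 (SE 0.24) with it. Within batch 1 the difference was 0.04, and within batch 2, where it rests on D3 alone for DMSO, it was 1.14.

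The remaining batch differences were smaller than that of mt-Nd6. mt-Nd3 differed by −0.40 (SE 0.09) as deposited and by −0.13 (SE 0.13) with its copy pooled, and without D3 by −0.21 (SE 0.06) as deposited. mt-Nd5, the largest of the complex I genes and a proton-pumping subunit, had 3031, 2787 and 2891 CPM in D1, D2 and H1 and 2678, 2478 and 2497 CPM in D3, H2 and H3 (log2 difference −0.17, SE 0.06). mt-Nd2 was also lower in all 3 libraries of batch 2, at 1865 to 2009 CPM against 2030 to 2100 CPM (−0.08, SE 0.05). mt-Co1 was higher, at 10213 to 11152 CPM against 9532 to 10093 CPM (0.11, SE 0.05), and without D3 the difference was 0.046 (SE 0.09). mt-Nd2, mt-Nd5, mt-Nd6 and mt-Co1 were the 4 of the 10 genes whose batches did not overlap, where 27.9% of all genes did not. Outside the set, mt-Rnr2, with the levels given above, fell by 0.26 on the log2 scale (SE 0.05, adjusted p = 0.0363, edgeR quasi-likelihood). Without D3 it was −0.24 and its call was lost (adjusted p = 0.192). Rod markers were higher in batch 2, as were summed cone markers (1663 to 1955 against 1346 to 1468 CPM). Summed bipolar markers were lower (2021 to 2220 against 2344 to 2436 CPM), as were those of amacrine and ganglion cells and of microglia. The part of these markers' cells in the batch values was not tested.

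D3, the shallowest library, was low for the genes with the shortest annotated transcripts. mt-Nd4l and mt-Atp8 overlap mt-Nd4 and mt-Atp6 on the same strand, so their annotated lengths need not be those of the RNAs. Against the mean of D1 and D2 its log2 difference was −0.45 for mt-Nd3 pooled with its copy (348 bases), −0.33 for mt-Nd4l (297 bases), −0.82 for mt-Atp8 (204 bases) and −1.86 for mt-Nd6 (519 bases). The 53 nuclear genes of the table with transcripts under 500 bases and a mean of 5 CPM or more had a median of −0.20, and the 570 genes of 500 to 1000 bases had −0.04. The coding genes next in length were not low: mt-Atp6 (681 bases) was at 0.06 and mt-Co2 (684 bases) at 0.17, both with copies pooled, and mt-Co3 (784 bases) was at 0.09. mt-Nd1 (957 bases) and mt-Cytb (1144 bases) were at 0.11 and 0.04. In H2 and H3 against H1 the short genes lay the other way, at 0.19 for mt-Nd3 pooled with its copy (−0.20 as deposited), 0.08 for mt-Nd4l and 0.33 for mt-Atp8. The nuclear genes under 500 bases had a median of 0.12 there, while mt-Nd6 was at −0.77.

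Nuclear genes whose products read, process and copy mitochondrial DNA are set beside these values, from lists chosen for their function. Polrmt, the mitochondrial RNA polymerase, was 43.4 to 43.9 CPM in W1 to W3, 27.9 CPM in W4, 34.2, 30.96 and 26.5 CPM in D1 to D3 and 39.6, 37.6 and 38.3 CPM in H1 to H3. All HAL libraries were above all DMSO libraries (log2 fold change 0.33, SE 0.10), but the adjusted p was 0.883. In rd10 DMSO without W4 Polrmt fell by 0.50 (SE 0.10, adjusted p = 0.00296, edgeR), by library size it was −0.29 (adjusted p = 0.0329), and with W4 it was −0.38 (adjusted p = 0.199). Tfam, which packages mitochondrial DNA and starts its transcription, was 19.5 to 25.1 CPM in all 10 libraries. Lrpprc, which stabilises the heavy-strand messenger RNAs, was 131 to 137 CPM in W1 to W3 and 74.7 to 92.6 CPM in W4 and rd10, and it fell by 0.69 without W4 (SE 0.08, adjusted p = 0.00033, edgeR), and with W4 it was −0.55 (adjusted p = 0.187).

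With W4 in the WT group edgeR called 0 genes of any of these nuclear lists in rd10 DMSO, and DESeq2 called 1 of those of mitochondrial DNA expression and copying. Without W4, where 29.9% of all genes were called lower and 32.3% higher, 2 of 7 tested transcription genes (of 11 listed) were called lower, Polrmt and Mterf3, and 0 higher. Of 16 tested processing and stability genes (18 listed), 5 were lower and 2 higher. Of 10 genes of DNA copying, Polg2, the accessory subunit of the mitochondrial DNA polymerase, was lower (−2.21, SE 0.23, adjusted p = 0.000166, edgeR), as was Top1mt, the mitochondrial topoisomerase (−1.14, SE 0.08, adjusted p = 3.7e-05, edgeR), and 1, Rrm2b, was higher. Of 7 regulators of mitochondrial biogenesis, 5 were lower, among them the coactivators Ppargc1a (−1.003, SE 0.06, adjusted p = 1.91e-05, edgeR) and Ppargc1b (−1.59, SE 0.09, adjusted p = 1.83e-05, edgeR). Median log2 fold changes of the 4 lists were −0.26, −0.11, −0.18 and −0.58, beside −0.01 for all genes. With W4 they were −0.22, −0.09, −0.16 and −0.45, and Polg2 (−1.86), Top1mt (−0.91), Ppargc1a (−0.82) and Ppargc1b (−1.32) each had an adjusted p of 0.187 (edgeR). Scaled by library size without W4 the medians were −0.06, 0.10, 0.03 and −0.38, beside 0.19. Calls were then 1 lower for transcription, 2 lower and 3 higher for processing and stability, 2 lower and 2 higher for DNA copying and 4 lower for biogenesis, beside 17.4% of all genes lower and 46.2% higher.

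Nuclear subunits of the same complexes were called lower without W4 for 5 of 7 core genes of complex I, 4 of 9 of complex III, 3 of 10 of complex IV and 8 of 14 tested of complex V, with 0 higher in each, beside 29.9% of all genes lower. The share for complex IV is that of all genes. Their median log2 fold changes were −0.39, −0.28, −0.20 and −0.21, and those of the 10 mitochondrial genes in the same fit ranged from −0.81 for mt-Nd6, whose values with and without D3 are given above, to 0.15 for mt-Nd1. Without W4 by library size the calls were 2, 2, 1 and 2 lower, and 1 of complex III was higher, beside 17.4% of all genes lower and 46.2% higher. The medians were then −0.19, −0.07, 0.0053 and −0.0041, beside 0.19 for all genes. For halofantrine against DMSO 0 genes of these lists were called. By batch 2 nuclear genes of these lists were called, where 4.63% of all genes were called and 3.09% higher. Both were higher in batch 2, and neither was called without D3: Pnpt1, an RNA-degrading enzyme of mitochondria (0.39, SE 0.08, adjusted p = 0.045, edgeR), and Polg2 (0.69, SE 0.14, adjusted p = 0.0442, edgeR). Polg2 was 53.5 to 59.6 CPM in W1 to W3, 8.89 to 10.4 CPM in W4 and the rd10 libraries of batch 1, and 12.5 to 17.5 CPM in batch 2, and the rod markers ordered the same sets of libraries alike, except that W4 was below batch 1 for them. Of 11 genes used as a gauge of mitochondrial mass, 2 were called higher and 3 lower without W4, and 4 higher and 2 lower when scaled by library size.

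The nuclear genes most like the mean log2 CPM of the 10 genes over the 10 libraries were Chmp5 (Pearson's r 0.96), ENSMUSG00000135230 (0.95), Pcdhga4 (0.95), Sgf29 (0.95) and Umps (0.94). Over the 6 rd10 libraries they were Tacr3, Prrt3, Fam217b, 1700037H04Rik and Eri3, each with r of 0.99 or more. The mean weights every gene alike on the log2 scale, and its r with mt-Nd6 was 0.95 over 10 libraries and 0.97 over 6. As mt-Nd6 is 1 of the 10 genes in the mean, that r is in part built in. These correlations are descriptions over few libraries that share batch and depth.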

How the data were processed

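Retina poly(A) RNA of 10 mice was sequenced with stranded libraries. Per the labels and methods, the authors pseudoaligned reads with kallisto to the mouse transcriptome (GRCm39) and summarised them with tximport, and they deposited estimated counts per gene and per transcript. The authors also deposited a normalized gene table, a signal made by dividing the counts by 1 factor per library. It differed from the CPM used here by at most 0.937% for the 10 genes. Their table of the halofantrine comparison holds fold changes and p-values and was not used. The filter that left 11702 genes was not given in the sources used here. Of the gene counts 51.4% were whole numbers. Counts were rounded, filtered (filterByExpr), scaled by TMM and tested with the quasi-likelihood test of edgeR 4.0.16 (R 4.3.3), with Benjamini-Hochberg adjustment over all genes tested and a threshold of 0.05. SEs were taken from the F statistic, and log2 CPM used a prior count of 2. Nothing but the labels says that the libraries are separate animals, and p-values measure the spread between them. DESeq2 1.42.0, limma-voom (limma 3.58.1), other scalings, no filter, a batch term, other sets of libraries and each library left out were tried. Pooling of counts with nuclear copies (Gm28438, Gm10925, Gm29216 and Gm28661), alone or with other choices, and library-size scaling without W4 were added after the values were seen. The fits were tested on simulated data.

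The 10 genes and all lists were chosen with earlier results of these data known. The genes named are the 10, the other genes of the mitochondrial genome, Polrmt, Tfam, Lrpprc, Ppargc1a, genes of a list with the smallest p-values in a comparison and the 5 most correlated genes over 10 or 6 libraries. Rrm2b was named after its value was seen, as the single higher gene of its list. Lists were transcription, RNA processing and stability, DNA copying, biogenesis regulators, nuclear subunits of complexes I, III, IV and V, mitochondrial mass, and markers of cell types, of which 1 rod marker is not reported here. Shared words were counted with 31 bases against GENCODE M21 transcripts, which gave a length for 98.12% of genes. In the deposited transcript table the summed estimated counts of the 22 mitochondrial transfer RNA genes were 8 in D3 and 58 to 164 in the other libraries, and they were not tested. Chi-square per gene between libraries of a group was at least 4.48, so none was a copy of another.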

Additional observations from a re-analysis of the deposited data

Results flagged for a closer look

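In WT DMSO, W4 lay far from W1 to W3 for both mitochondrial ribosomal RNAs. For mt-Rnr1 it had 280 CPM against 206 to 210 CPM, a gap of 0.935 of the group's whole range, and for mt-Rnr2 it had 1129 CPM against 885 to 908 CPM, a gap of 0.903, both above Dixon's 95% critical value for 4 samples. Chance marks about 1 in 20 groups, and 16 items were examined. W4 had rod markers at the rd10 level, and its values for both RNAs lay beside those of D1, D2 and H1 (284 to 292 CPM and 1076 to 1100 CPM). The part of the rod loss in these values was not tested.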

How the results depend on the processing

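Genes called between rd10 HAL and rd10 DMSO went from 0 to 3 with DESeq2 and ranged from 0 to 7 with 1 library left out. Between rd10 DMSO and WT DMSO they went from 0 to 589 with DESeq2, ranged from 0 to 7280 with 1 library left out (7280 without W4), and were 7284 without W4 with copies pooled and 7440 without W4 by library size. Nuclear genes of mitochondrial DNA expression and copying called there went from 0 to 1 with DESeq2, 0 to 12 with 1 library left out, 12 without W4 with copies pooled and 10 without W4 by library size. Between batches, 542 genes became 1419 with DESeq2, 218 without the treatment term and 91 (without D3) to 2638 (without H1) with 1 library left out. The 2 nuclear genes called by batch became 0 with limma-voom, 0 without the treatment term and 0 to 6 with 1 library left out. mt-Nd6 was called by batch with all 6 rd10 libraries by edgeR, limma-voom and DESeq2, and it was not called without the treatment term or without D1, D2, H3 or D3. DESeq2 also called mt-Nd3 and mt-Nd5 by batch, library-size scaling mt-Nd3, and the fit without H1 mt-Nd3 and mt-Nd4l. The summed level of the 10 genes in rd10 DMSO minus WT DMSO was 0.12 without TMM, and rd10 HAL minus DMSO was −0.085 within batch 2. Among fitted values of the 10 genes, 155 moved by less than the replicate spread and 15 by more in rd10 DMSO against WT DMSO, all 15 under library-size scaling. For halofantrine 148 moved by less and 2 by more, both mt-Nd3 with its copy pooled, and by batch 122 and 8. The cause of these shifts was not tested. No paired analysis was possible because no label ties a mouse of 1 group to a mouse of another. Depth limits mt-Nd6 in D3 most, at 124 counts.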
